A study of Homo sapiens with 6 samples.

Results

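Histone genes were followed in RNA sequencing of HT29, an established human colorectal cancer cell line. The set held 99 of the 56638 gene symbols listed in the count tables. It was defined by symbol alone. There were 89 clustered genes, whose symbols start with HIST1H, HIST2H, HIST3H or HIST4H, and 10 variant genes: H1F0, H1FX, H2AFJ, H2AFV, H2AFX, H2AFY, H2AFY2, H2AFZ, H3F3A and H3F3B. All libraries came from HT29 cells: 3 received a nonspecific control siRNA, and 3 received an siRNA against RNF6, which encodes a RING-type ubiquitin ligase. The labels name no stable genetic change, no time after transfection and no number of different siRNAs. Since no label ties the replicates to separate cultures, p-values here compare libraries whose spread may be technical only.

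Core histones H2A, H2B, H3 and H4 form the octamer around which DNA is wrapped, and the linker histone H1 binds the DNA between octamers. The clustered genes supply new histones during DNA replication. Their messages mostly end in a stem-loop bound by the protein SLBP and carry no poly-A tail, although several clustered genes also make messages with a tail in cells that leave the cycle. The variant genes are spread over the genome, mostly give messages with a poly-A tail, and are expressed through the whole cell cycle. Products of H2A and H3 variant genes replace core histones at particular sites: H2A.Z at promoters, H3.3 in transcribed chromatin, macroH2A in silent chromatin. The variant genes H1F0 and H1FX encode linker histones.

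The target fell in every RNF6 siRNA library: RNF6 had 54.3, 45.2 and 57.8 CPM (reads per 1000000 gene reads, TMM-scaled) in the 3 control libraries, by replicate number, and 16.5, 16.2 and 16.9 CPM in RNF6 siRNA replicates 1, 2 and 3 (log2 fold change −1.66, SE 0.126, adjusted p = 2.12e-06). Reads assigned to genes numbered 6808771 to 11071456 a library. Reads set aside as ambiguous between genes made up 8.27% to 9.11% of listed reads, and reads with several alignments 11.39% to 12.47%. Colon epithelial markers summed to 3758 ± 502 CPM in control cells against 1728 ± 119 CPM with RNF6 siRNA (SD, n = 3). Most of this came from KRT8, the simple-epithelium keratin, at 3064 ± 442 and 1256 ± 104 CPM. Of the 9 epithelial markers, 3 of 6 tested fell and 0 rose, where 16.1% of all tested genes fell and 16.6% rose. The other 3 tested markers had positive estimates without a call. CDX1, an epithelial marker, and PECAM1, an endothelial one, had 0 reads in all libraries. Summed markers of leukocytes stayed between 0.886 and 3.09 CPM, and those of endothelium between 1.08 and 2.69 CPM, led by VWF. The 5 fibroblast genes summed to 49.5 to 83.1 CPM, nearly all from COL1A1, and were higher in every RNF6 siRNA library. The part of these marker shifts in the histone results was not tested.

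The end of the message is a feature in which many members of the classes differ, so the stem-loops are shown first. A stem of 6 bases (GG, any 3 bases, T), a loop of 4 bases and the exact reverse complement of the stem were looked for after the stop codon on the sense strand of GENCODE 29 transcripts. Among 19454 protein-coding genes with such a region, 232, or 1.19%, held a match. Of the 10 clustered genes with enough reads to test, 8 had an annotated region to search and 6 of those matched. Of the 10 variants 1 matched, H2AFX, which encodes the histone H2AX that is phosphorylated at DNA breaks. The 16 bases of stem and loop are in capitals, with 5 flanking bases on each side.

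HIST1H2AC: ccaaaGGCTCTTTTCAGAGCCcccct
HIST1H2BC: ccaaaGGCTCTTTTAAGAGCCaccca
HIST1H2BD: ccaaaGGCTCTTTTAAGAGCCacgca
HIST1H2BN: acaacGGCTCTTTTCAGAGCCaccta
HIST2H2BE: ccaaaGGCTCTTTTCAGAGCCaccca
HIST3H2A: ataaaGGCTCTTTTCAGAGCCaccta
H2AFX: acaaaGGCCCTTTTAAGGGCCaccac

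The stem-loops of the 6 clustered genes began 30 to 56 bases after the stop codon and share the same left arm, from which H2AFX differs. All 8 searched clustered genes that were tested also had at least 1 annotated transcript that either lacks the stem-loop or runs at least 50 bases past it. So did 16 of 20 searched clustered coding genes with too few reads to test, and 6 of 8 searched genes with no read. The poly-A signal AATAAA was looked for in the last 50 bases of transcripts. It was found in 6 of the 8 tested clustered genes searched and in 6 of 10 variants, beside 71.9% of coding genes. HIST1H1C and HIST1H2BK, both abundant here, have no annotated region after the stop codon in that release and were not searched. Whether the libraries were made from poly-A selected RNA is not stated in the sources used here.

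Reads were very unequally spread over the set. Of the 89 clustered genes, 33 had no read in any library, 31 had 1 to 9 reads over the 6 libraries and 25 had 10 or more. Only 10 passed the filter on low counts: 1 of 8 H1 genes, 3 of 22 H2A genes, 6 of 26 H2B genes, and 0 of 17 H3 and 0 of 16 H4 genes. The most heavily covered untested members had 36 reads in all, HIST1H3E and the pseudogene HIST2H2BC, followed by HIST1H1E with 35. All 10 variants passed, with 198 reads for H3F3A up to 52984 for H3F3B. GENCODE classes 71 of the clustered rows as protein coding and 18 as pseudogenes, of which 12 had no read and none was tested.

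**Figure D1:**
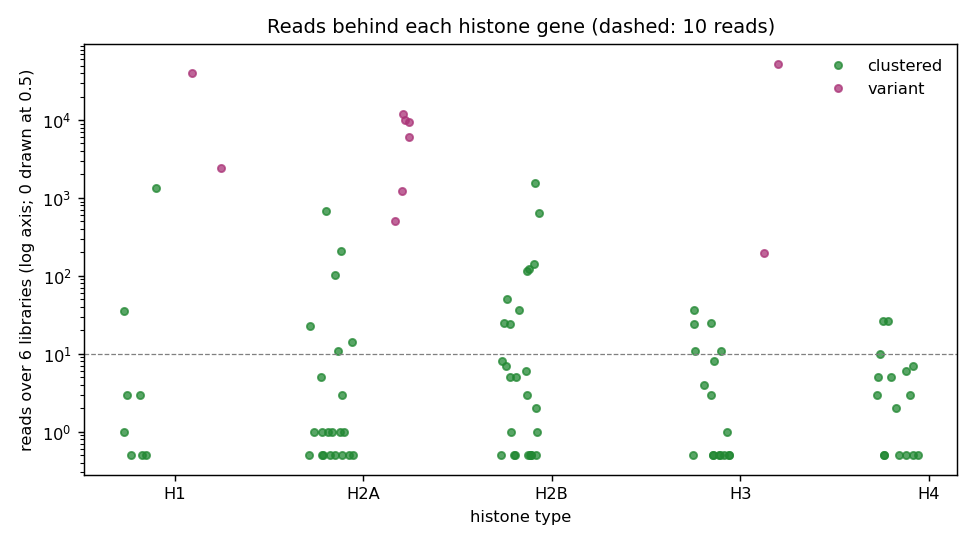
Reads summed over the 6 libraries (log axis, zeros drawn at 0.5) for each histone gene, by histone type, with clustered genes in green and variants in purple. The variants lie between 198 and 52984 reads, while clustered H3 and H4 genes do not exceed 36.

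Some members have near-identical copies. For each gene, all 50-base windows of its GENCODE transcripts were compared with the transcripts of other genes. HIST2H2AA3 and HIST2H2AA4, which encode H2A, shared 100% and 97.1% of their windows, mainly with each other. HIST2H3A and HIST2H3C shared 100%, and HIST2H4A and HIST2H4B 97.5% and 97.2%. Each of these 6 genes had 0 reads in all libraries. Whether their reads were set aside as not unique was not tested. Of the 21 coding genes without a read, 7 shared at least 50% of their windows, and the median share was 0%. Among the tested clustered genes only HIST1H2BK did, at 74.1%, mostly with the H2B copy H2BFS, so its level is uncertain. The other tested clustered genes shared 0% to 10.1%. HIST1H2BK is annotated over only 381 exon bases, with no region after the stop codon. Most of the others include such a region, so these shares cover unlike parts of the genes.

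Other untested members with at least 10 reads in all were HIST1H2AI (14), HIST1H2AK (11), HIST1H3D (24), HIST1H3H (25), HIST1H3J (11), HIST1H4E (26), HIST1H4H (10), HIST1H4I (26), HIST2H2AC (23), HIST2H2BD (25), HIST2H2BF (24) and HIST3H3 (11). HIST1H1E, a linker histone gene, had 1, 1 and 6 reads in control replicates 1, 2 and 3, and 12, 12 and 3 in RNF6 siRNA replicates 1, 2 and 3. Its groups overlapped. When edgeR's quasi-likelihood test was run without a filter on low counts, 0 of the 46 untested members with a read passed, 2 had an unadjusted p below 0.05, and the smallest adjusted p was 0.0575, for HIST1H1E.

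Among clustered genes that could be tested, calls went in 1 direction. Of the 10, 5 rose, 0 fell and 5 did not pass, where 16.6% of all 14685 tested genes rose and 16.1% fell. The median log2 fold change of the 10 was 0.49, and that of all tested genes 0.01. The members that rose were the H2B genes HIST1H2BD, HIST1H2BC and HIST1H2BK, the H2A gene HIST1H2AC and the linker gene HIST1H1C. In these 5 the groups did not overlap, a pattern found in 44.2% of all tested genes. Since a low-count filter keeps genes through their higher group, the counts over the 10 describe only the members with enough reads.

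HIST1H2BD encodes a core H2B. By replicate number, control libraries were at 4.27, 6.16 and 5.87 CPM, and RNF6 siRNA libraries at 16.7, 19.8 and 15.9 CPM. Every RNF6 siRNA library was above every control library, by more than the spread within either group. It rose 3.15-fold, the control mean being 5.43 ± 1.02 and the RNF6 siRNA mean 17.5 ± 2.05 CPM (SD, n = 3), with log2 fold change 1.66, SE 0.170 and adjusted p = 1.87e-05. These levels rest on 31 to 182 reads a library.

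HIST1H2AC, a core H2A gene, was at 6.33, 9.63 and 7.79 CPM in the control replicates and at 15.5, 23.9 and 13.2 CPM in the RNF6 siRNA replicates. RNF6 siRNA replicate 2 was the highest library, and the groups did not overlap. The rise was 2.15-fold (log2 fold change 1.11, SE 0.223, adjusted p = 0.00240). HIST1H2BC, a core H2B gene, was near 1 CPM in control, at 1.38, 1.23 and 1.28 CPM, and at 2.48, 3.54 and 2.69 CPM after RNF6 siRNA. It rose 2.18-fold (log2 fold change 1.13, SE 0.278, adjusted p = 0.00792) on 10 to 30 reads a library. The highest library was again RNF6 siRNA replicate 2.

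HIST1H1C, which encodes the linker histone H1.2, had 19.1, 22.8 and 18.7 CPM in control and 31.5, 34.1 and 23.9 CPM in RNF6 siRNA replicates. The lowest RNF6 siRNA library, replicate 3, lay close to the highest control library, replicate 2. The rise was 1.46-fold (log2 fold change 0.55, SE 0.151, adjusted p = 0.0138). Leaving out control replicate 3 gave an adjusted p of 0.0810 and leaving out RNF6 siRNA replicate 2 gave 0.0666, both above 0.05. The value ran from 0.00181 to 0.0810 over all alternatives. HIST1H2BK, another H2B gene, had 24.2, 25.0 and 25.7 CPM in control and 31.1, 34.1 and 30.8 CPM after RNF6 siRNA. It rose 1.28-fold (log2 fold change 0.35, SE 0.112, adjusted p = 0.0284). The log2 fold change stayed between 0.31 and 0.38 with 1 library left out, but the call was lost for any library except control replicate 1, with adjusted p of 0.0658 for control 2, 0.0948 for control 3, and 0.0524, 0.0879 and 0.0722 for RNF6 siRNA 1, 2 and 3. The call was also lost in DESeq2 (0.0546) and without the filter on low counts (0.0779), within a range of 0.0241 to 0.113. Without control replicate 3 or RNF6 siRNA replicate 2, 3 clustered genes rose.

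**Figure D2:**
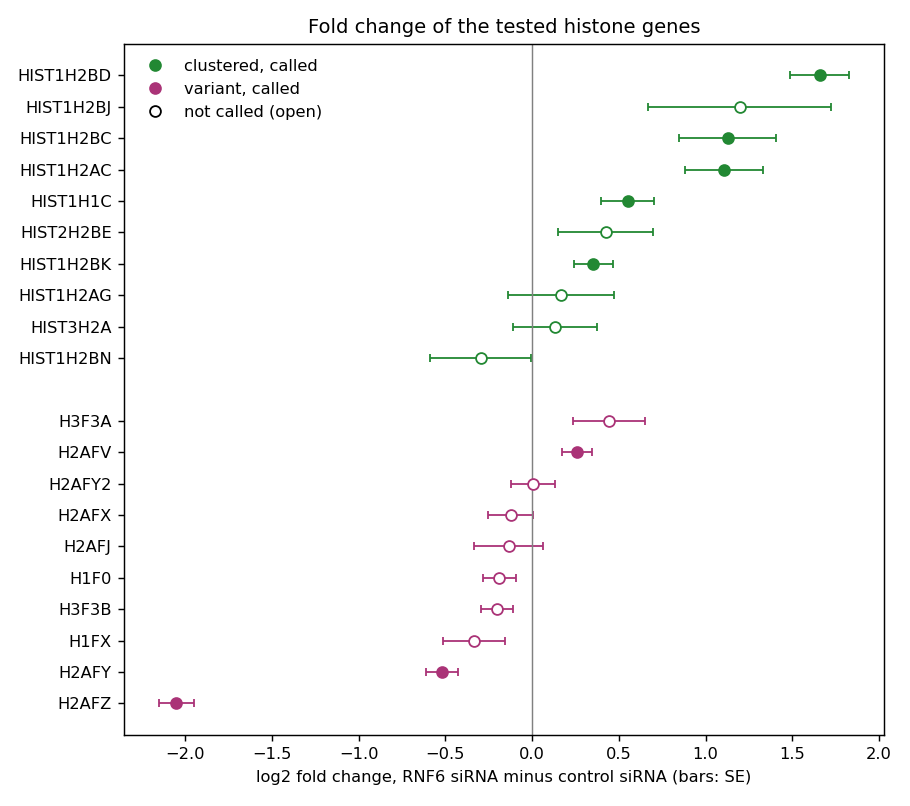
Log2 fold change (RNF6 siRNA minus control siRNA, bars SE) of the 20 tested histone genes, clustered in green and variant in purple, filled where the adjusted p was below 0.05. Clustered genes reach 1.66 for HIST1H2BD, and H2AFZ stands alone at −2.05.

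The 5 tested clustered genes without a call had SEs of 0.241 to 0.528 on the log2 scale. HIST1H2BJ, an H2B gene, had the second largest estimate of the clustered genes (log2 fold change 1.20, SE 0.528, adjusted p = 0.0989). Its reads were 9, 3 and 2 in control and 12, 7 and 18 in RNF6 siRNA replicates, with control replicate 1 above the other controls and level with the RNF6 siRNA libraries. Without control replicate 1 it passed (log2 fold change 2.17, adjusted p = 0.00560), within a range of 0.00560 to 0.357. HIST2H2BE, an H2B gene, was at 1.88 ± 0.547 and 2.56 ± 0.264 CPM (adjusted p = 0.258), with log2 fold changes of 0.26 to 0.66 when 1 library was left out. HIST1H2AG and HIST3H2A, both H2A genes, had log2 fold changes of 0.17 (SE 0.305) and 0.13 (SE 0.241), whose sign turned without control replicate 1 or RNF6 siRNA replicate 1. HIST1H2BN was the only tested clustered gene with a lower estimate (log2 fold change −0.30, SE 0.292, adjusted p = 0.468), and its estimate ran from −0.54 to −0.12 with 1 library left out. In the annotation 7.2% of its exons lie under other genes, HIST1H2AK and HIST1H2AL.

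HIST1H2AC and HIST1H2BC are neighbours in the large histone cluster on chromosome 6 and are transcribed away from each other, with RefSeq starts 246 bases apart, so the same stretch of DNA precedes both. Both rose, 2.15-fold and 2.18-fold. Another such pair, HIST1H2AG and HIST1H2BJ, with starts 248 bases apart, had log2 fold changes of 0.17 and 1.20, neither called. HIST2H2BE and HIST2H2AC, 236 bases apart on chromosome 1, had 123 and 23 reads in all, and HIST3H2A and HIST3H2BB, 230 bases apart, 207 and 5. In each of these last pairs most reads came from 1 member. HIST1H2BN, the tested clustered gene with a lower estimate, and HIST1H2AK start 194 bases apart. They had 140 and 11 reads in all, and 100% of the HIST1H2AK exon bases lie under HIST1H2BN.

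The promoters of HIST1H2BD, HIST1H2BC and H2AFZ are shown, since these are the called members with the largest log2 fold changes in size. Each is the 250 bases before the RefSeq start (build GRCh38.p14, not the hg19 of the counts), with capitals for the box CCAAT, the element TATAAA or the octamer ATTTGCAT on either strand. The HIST1H2BD window is chr6:26157871-26158120 (plus strand), that of HIST1H2BC is chr6:26123927-26124176 (minus strand), and that of H2AFZ is chr4:99950276-99950525 (minus strand).

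HIST1H2BD: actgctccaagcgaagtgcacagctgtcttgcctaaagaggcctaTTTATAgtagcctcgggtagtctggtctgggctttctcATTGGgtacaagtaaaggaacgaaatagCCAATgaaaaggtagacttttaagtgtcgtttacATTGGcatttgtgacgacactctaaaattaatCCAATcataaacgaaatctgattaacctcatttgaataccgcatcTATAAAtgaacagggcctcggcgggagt
HIST1H2BC: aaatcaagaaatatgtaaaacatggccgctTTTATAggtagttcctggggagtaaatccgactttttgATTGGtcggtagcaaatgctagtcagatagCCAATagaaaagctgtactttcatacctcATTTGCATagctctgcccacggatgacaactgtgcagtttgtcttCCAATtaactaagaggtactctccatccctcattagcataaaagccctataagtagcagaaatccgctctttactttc
H2AFZ: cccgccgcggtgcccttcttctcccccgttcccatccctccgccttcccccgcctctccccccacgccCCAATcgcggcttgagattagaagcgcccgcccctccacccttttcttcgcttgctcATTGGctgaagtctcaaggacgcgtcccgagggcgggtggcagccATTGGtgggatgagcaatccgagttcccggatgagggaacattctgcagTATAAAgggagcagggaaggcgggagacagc

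All 3 windows hold CCAAT, a match found in 32.72% of 22199 RefSeq promoter windows of protein-coding genes, and all 3 hold TATAAA on at least 1 strand, a match found in 9.0%. TATAAA starts 28 bases before the start in HIST1H2BD and 31 bases before it in H2AFZ, the member that fell most. The only match in HIST1H2BC is antisense and lies 220 bases before its start. It is thus close to the start of HIST1H2AC, 246 bases away and transcribed in the antisense direction. The octamer, found in 1.59% of windows, was present in 14 of 18 H2B and 11 of 14 H2A windows and in 1 of 23 H3 or H4 windows. HIST1H2BD, the gene with the largest rise, is an H2B gene without an exact octamer, while HIST1H2BC has it 123 bases before its start. Among tested clustered genes, 3 of the 5 that rose and 3 of the 5 without a call have it. These counts are not of separate promoters. HIST1H2AC and HIST1H2BC start 246 bases apart, and HIST1H2AG and HIST1H2BJ 248, so their windows hold nearly the same DNA. As both strands were searched, 1 octamer can count for both members of such a pair. These matches describe the letters in the windows and carry no measure of binding.

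Most variants did not pass. Of the 10, 1 rose, 2 fell and 7 did not pass, against 32.7% of all tested genes called in either direction. The median log2 fold change was −0.16. The groups did not overlap for 6 variants, beside 44.2% of all tested genes. H2AFZ and H2AFY fell and H2AFV rose.

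H2AFZ encodes H2A.Z.1, the main gene for H2A.Z. By replicate number, control libraries were at 340, 397 and 357 CPM and RNF6 siRNA libraries at 93.0, 88.4 and 82.7 CPM. The gap between the groups was wider than the range within either. H2AFZ fell 4.14-fold (364 ± 29.3 against 88.0 ± 5.15 CPM; log2 fold change −2.05, SE 0.102, adjusted p = 1.01e-07). In the annotation 9.7% of its exons overlap another gene, AC097460.1. The log2 fold change stayed between −2.11 and −1.99 when any 1 library was left out. H2AFV encodes H2A.Z.2, a protein almost the same as H2A.Z.1. It had 173, 169 and 163 CPM in control and 199.6, 201.6 and 202.8 CPM in RNF6 siRNA replicates, a 1.20-fold rise (log2 fold change 0.26, SE 0.0881, adjusted p = 0.0385).

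That rise is small. Among fits with 1 library left out, it was called only when control replicate 1 was removed: the adjusted p was 0.0805 with control 2 removed, 0.197 with control 3, and 0.0875, 0.0815 and 0.128 with RNF6 siRNA 1, 2 and 3. With no filter on low counts it was 0.152, within a range of 0.0293 to 0.197. Within each library, H2AFZ supplied 66.2%, 70.2% and 68.7% of the reads of both H2A.Z genes in control and 31.8%, 30.5% and 28.97% after RNF6 siRNA. The log2 ratio of H2AFZ to H2AFV reads went from 1.11 ± 0.132 to −1.20 ± 0.0959 (SD, n = 3), a ratio 4.95-fold lower. An exact two-sided permutation test over libraries gave p = 0.10, the smallest that 3 against 3 allows, and 0.10 when adjusted over 3 pairs. The shift of this ratio does not depend on how libraries are scaled.

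**Figure D3:**
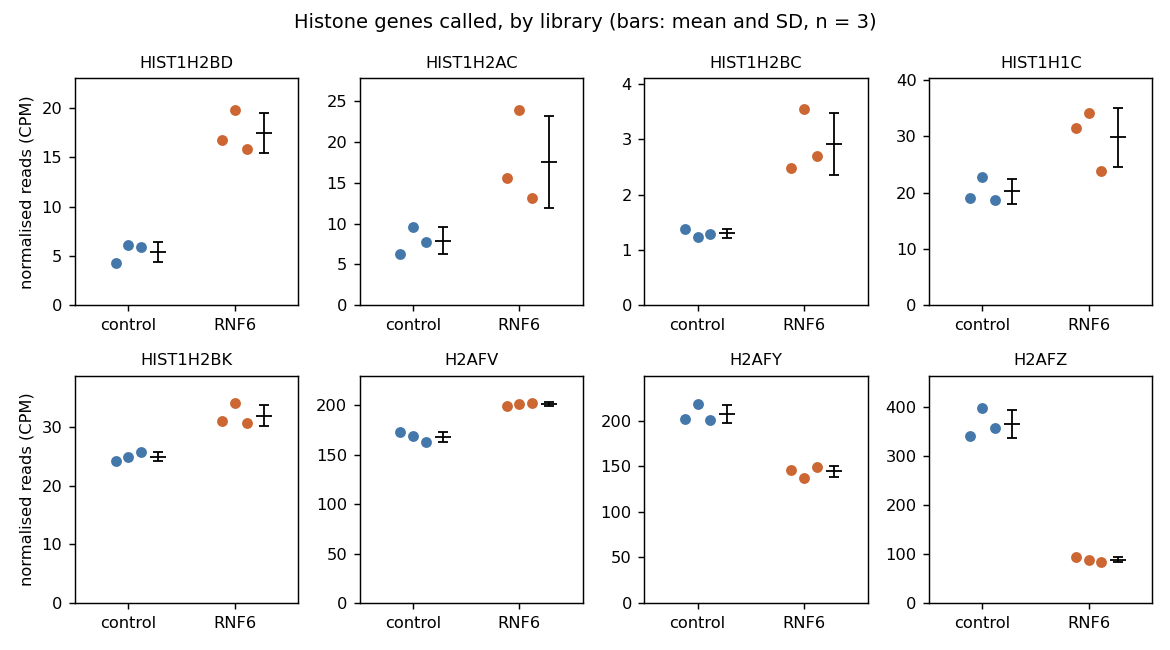
Normalised read counts (CPM) of the 8 histone genes called, 1 point per library, with mean and SD (n = 3). In each panel the groups do not overlap; H2AFZ drops from 364 to 88.0 CPM while HIST1H2BD climbs from 5.43 to 17.5 CPM.

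H2AFY encodes macroH2A1, a large H2A variant of silent chromatin. It had 202, 219 and 201 CPM in control and 147, 138 and 149 CPM in RNF6 siRNA replicates, and the groups did not overlap. H2AFY fell 1.43-fold (log2 fold change −0.52, SE 0.0919, adjusted p = 0.00101), although 30.9% of its annotated exons lie under other genes. Its relative H2AFY2, for macroH2A2, was at 22.5 ± 2.51 and 22.5 ± 0.975 CPM (log2 fold change 0.01, SE 0.126, adjusted p = 0.973). The log2 ratio of H2AFY to H2AFY2 reads went from 3.21 ± 0.130 to 2.68 ± 0.0215, with no overlap between groups (exact permutation p = 0.10, adjusted 0.10).

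H3F3A and H3F3B are separate genes for the same H3.3 protein. H3F3B had 980, 1106 and 1050 CPM in control and 948, 914 and 864 CPM after RNF6 siRNA, without overlap but also without a call (log2 fold change −0.20, SE 0.0944, adjusted p = 0.118). H3F3A was listed with only 3.09 ± 0.428 and 4.16 ± 0.222 CPM (log2 fold change 0.44, SE 0.207, adjusted p = 0.117). The pseudogene H3F3AP4, no member of the set and named after its values were seen, carried 149 ± 6.79 and 206 ± 12.9 CPM. Every 50-base window of H3F3AP4 is also in another gene's transcript, most often H3F3A. In the other direction 11.7% of the H3F3A windows are shared. The annotated copy spans only 411 exon bases, against 3146 for H3F3A over all its transcripts. That share therefore does not show how far the rest of the H3F3A message differs from the genomic copy. How reads were divided between these rows was not tested, so the level of H3F3A and its ratio to H3F3B are uncertain. The row of H3F3AP4 rose 1.38-fold (log2 fold change 0.47, SE 0.0944, adjusted p = 0.00246), beside the 1.36-fold estimate of H3F3A. The log2 ratio of H3F3A to H3F3B reads went from −8.38 ± 0.278 to −7.75 ± 0.142 (exact permutation p = 0.10, adjusted 0.10), with no overlap.

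Linker variants were lower in estimate without a call. H1F0 encodes H1.0, a linker histone that accumulates in cells that stop dividing. It had 806, 805 and 752 CPM in control and 716, 723 and 633 CPM after RNF6 siRNA (log2 fold change −0.19, SE 0.0952, adjusted p = 0.146), and the groups did not overlap. H1FX, for H1.10, had 37.0, 62.1 and 50.7 CPM in control and 48.3, 37.2 and 33.5 CPM in RNF6 siRNA replicates (log2 fold change −0.33, SE 0.178, adjusted p = 0.170). Control replicate 1 lay among the RNF6 siRNA libraries. With control replicate 1 left out H1FX was called lower (adjusted p = 0.00364), as it was with RNF6 siRNA replicate 1 left out (0.0340) or no filter on low counts (0.0457), within a range of 0.00364 to 0.5002. Its log2 fold change ran from −0.51 to −0.15 with 1 library left out. Of its exons 22.9% overlap the antisense gene H1FX-AS1.

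H2AFX, whose message holds a stem-loop like those of the clustered genes, was at 115 ± 11.3 and 105.2 ± 18.2 CPM (log2 fold change −0.12, SE 0.130, adjusted p = 0.497). H2AFJ, an H2A variant linked to senescent cells, was at 9.64 ± 2.08 and 8.70 ± 1.93 CPM (log2 fold change −0.14, SE 0.198, adjusted p = 0.638). Both had overlapping groups. With 1 library left out the H2AFX estimate ran from −0.25 to −0.007. CENPA, the centromeric H3 variant outside the set, rose 1.49-fold (17.2 ± 0.655 against 25.6 ± 0.883 CPM; log2 fold change 0.57, SE 0.117, adjusted p = 0.00258).

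Sums over members, which carry no test, differed in direction between the classes. Clustered genes gave 72.0, 81.5 and 78.4 CPM in control and 119.8, 138.6 and 105.8 CPM in RNF6 siRNA replicates, 1.57 times the control mean. By type, the sums went from 20.6 ± 2.24 to 31.0 ± 5.98 CPM for H1, from 14.2 ± 3.03 to 24.8 ± 5.78 CPM for H2A and from 38.8 ± 0.747 to 61.3 ± 4.91 CPM for H2B genes. HIST1H1C alone gave 20.2 and 29.8 CPM of the H1 sums, and HIST1H2AC 7.91 and 17.5 CPM of the H2A sums. Clustered H3 genes summed to 2.03 ± 0.444 and 2.43 ± 0.381 CPM and H4 genes to 1.66 ± 0.335 and 1.84 ± 0.584 CPM. Both differences were smaller than the control SD. The H3 sums rest on only 14 to 32 reads a library and the H4 sums on 10 to 19, so a change there could be missed. Without HIST1H2BD and HIST1H2AC the clustered sum was 63.9 ± 2.28 and 86.4 ± 9.12 CPM. The 79 untested genes together gave 6.77 ± 1.05 and 9.60 ± 1.53 CPM.

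Variants summed to 2676, 2921 and 2720 CPM in control and 2311, 2221 and 2108 CPM after RNF6 siRNA. H2AFZ made up 12.7% to 13.6% of variant reads in control and 3.92% to 4.02% after RNF6 siRNA. Without it the variants summed to 2408 ± 102 and 2125 ± 96.8 CPM. Clustered genes accounted for 2.62% to 2.80% of all histone reads in control and 4.78% to 5.87% in RNF6 siRNA libraries. Since poly-A selection is neither stated nor excluded, messages without a tail may be missing from the clustered sums and shares. These values are therefore not a measure of all clustered histone messages. In bulk RNA, a change in the share of cells in S phase and a change per cell cannot be told apart.

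**Figure D4:**
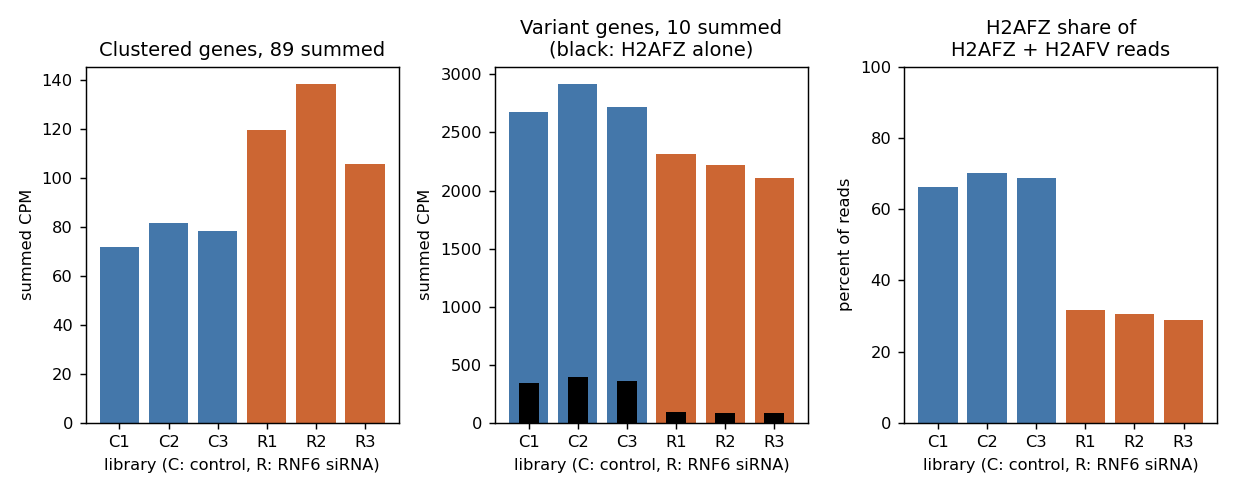
Left, summed CPM of the 89 clustered genes by library; middle, summed CPM of the 10 variants with H2AFZ alone in black; right, H2AFZ as a percent of H2AFZ and H2AFV reads. The clustered sum lies between 72.0 and 81.5 CPM in control and between 105.8 and 138.6 CPM after RNF6 siRNA, while the H2AFZ share is 66.2% to 70.2% and 28.97% to 31.8%.

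Genes that make and process histone messages moved in both directions. Of 20, all tested, 5 fell, 2 rose and 13 did not pass, with a median log2 fold change of −0.03. Over all tested genes 16.1% fell and 16.6% rose. SLBP, the stem-loop binding protein, fell 1.34-fold, 121 ± 4.33 against 90.4 ± 0.959 CPM (adjusted p = 0.00447). CPSF2, a subunit of the histone cleavage complex, fell 1.54-fold, and NCBP1, of the nuclear cap-binding complex, 1.55-fold. SRRT, a cap-complex partner needed for histone message ends, rose 1.43-fold. The number that rose was 4 with control replicate 1 left out and 1 with control replicate 3 left out.

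Among histone chaperones and exchange factors, 11 of 35 tested rose, 4 fell and 20 did not pass, with a median log2 fold change of 0.19, where 16.6% of all tested genes rose and 16.1% fell. NASP, a chaperone of H3 and H4, rose 1.36-fold, from 192 ± 8.72 to 261 ± 2.42 CPM. SUPT16H, a subunit of the FACT complex, rose 1.49-fold, and NAP1L1, a chaperone of H2A and H2B, 1.51-fold. SET, a chaperone and inhibitor of histone acetylation, fell 1.64-fold, from 333 ± 26.3 to 203 ± 8.75 CPM. The number that rose was 6 when replicate 3 of either group was left out.

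S phase genes, which share their timing with the clustered genes, rose for 7 of 24 tested members, fell for 2 and did not pass for 15, with a median log2 fold change of 0.24, beside 16.6% higher and 16.1% lower over all tested genes. DTL, of the ubiquitin ligase that removes CDT1, rose 1.51-fold, and RRM1, of ribonucleotide reductase, 1.43-fold. CCNE1, for the cyclin of S phase entry, fell 2.47-fold, 40.4 ± 2.93 against 16.3 ± 0.840 CPM (adjusted p = 7.19e-06). Without control replicate 1, 11 members rose. Without control replicate 3 or RNF6 siRNA replicate 1, 1 fell. Their part in the histone result was not tested.

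RNAs of other classes that lack a poly-A tail were mixed. The 16 listed RNAs summed to 110.1, 49.0 and 51.8 CPM in control and 64.8, 39.7 and 39.8 CPM after RNF6 siRNA, so control replicate 1 stood above all others. The most abundant, RN7SL2 and RN7SL1 of the signal recognition particle, had log2 fold changes of −1.10 (SE 0.436, adjusted p = 0.0792) and −0.56 (SE 0.322, adjusted p = 0.203). The nucleolar SNORD3A rose 1.68-fold (adjusted p = 0.0382), a call that was lost when control 2 (0.122) was left out, and when RNF6 siRNA 2 (0.111) or 3 (0.114) was. Of 6 tested RNAs of this list 2 rose and 0 fell, against 16.6% and 16.1% of all tested genes.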

How the data were processed

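For each of the 6 libraries the authors deposited raw counts by gene symbol, as integers. The submitters' processing notes name TopHat2 2.0.11, HTSeq and the hg19 build. The sources used here do not give the strand setting, the gene annotation or whether RNA was poly-A selected. Rows that name no gene held 27.28% to 29.43% of listed reads and were left out.

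Counts were analysed with edgeR 4.0.16 in R 4.3.3: filterByExpr (minimum count 10, minimum total 15), TMM scaling, glmQLFit (robust) and glmQLFTest with group as the only term, two-sided. This left 14685 genes, and adjusted p-values are Benjamini-Hochberg over all of them, called below 0.05. The SE is the log2 fold change over the square root of F. All adjusted p-values are from this test unless a sentence names another. Alternatives were RLE and upper-quartile scaling, other filters, DESeq2 1.42.0, limma-voom (limma 3.58.1), a replicate block, and each library left out. The test was checked on simulated counts with far fewer changed genes than were called in these data. Paralog ratios used reads + 0.5.

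Every variant and tested clustered gene is named, untested ones from 10 reads, and from 3 lists chosen by function the called members with the 4 smallest adjusted p; some genes this rule names are not reported here. Members and lists were chosen with earlier results of these data known. GENCODE 29 (GRCh38) supplied transcripts for all 99 members, and RefSeq (GRCh38.p14) promoters for 70. Promoters and stem-loops were searched for exact letters.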

Additional observations from a re-analysis of the deposited data

How the results depend on the processing

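Of the 8 histone genes called, HIST1H2BD, HIST1H2AC, HIST1H2BC, H2AFZ and H2AFY kept their direction and call in all 13 alternatives. RLE, upper-quartile scaling, the filter of 1 CPM and limma-voom changed no call of a member. Same-numbered libraries did not deviate together (correlations −0.463, −0.252 and 0.052), so the numbers are not taken to pair them. Differently numbered libraries of the groups had correlations from −0.244 to 0.461, the highest for control 2 with RNF6 siRNA 1. With the replicate block 1421 genes rose and 1321 fell over all genes, 0 variants, 1 histone message processing gene and 6 chaperone genes rose, 1 S phase gene fell, and HIST1H2BK (adjusted p = 0.113) and H2AFV (0.1595) lost their calls, as did SNORD3A (0.0711). Without a filter on low counts, 0 variants rose and the log2 fold change of H2AFY2 was −0.006. Leaving out 1 library at a time gave 1514 to 2910 higher and 1478 to 2967 lower genes in all. It gave 3 to 6 clustered genes higher, 0 to 1 variants higher, 1 to 4 processing genes higher, 6 to 11 chaperone genes higher, 6 to 11 S phase genes higher and 1 to 2 lower. Signs of genes without a call turned for HIST1H2AG (−0.015 without control replicate 1, −0.001 without RNF6 siRNA replicate 1), HIST3H2A (−0.040 and −0.033 in the same settings), H2AFJ (0.021 without control replicate 3) and H2AFY2 (−0.096 without control replicate 3, −0.031 without RNF6 siRNA replicate 3). With 1 library left out, these genes reached 0.431 (HIST1H2AG), 0.316 (HIST3H2A), −0.290 (H2AFJ) and 0.069 (H2AFY2) at the other end. The causes were not tested. Low counts kept 79 of 89 clustered genes from being tested.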
